A study of Mus musculus with 52 samples.

Results

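Mice of the strain C57B/6JRj that had lived in an enriched environment for 10 weeks were compared with mice enriched for 2 weeks, by small RNA sequencing of the dentate gyrus (DG). The sample titles gave 8 libraries of 10wEE_DG and 5 of 2wEE_DG, 13 of the 52 libraries of the series. The labels give 20 weeks as the age in all groups, so a longer stay goes with an earlier start, and these 2 cannot be told apart. Comparison groups from other libraries were home-cage DG (6 libraries of 10wHC_DG and 6 of 2wHC_DG) and the enriched CA region of the hippocampus (8 libraries of 10wEE_CA and 7 of 2wEE_CA). No genotype other than the strain is given. The labels do not say that each library came from its own animal, so the p-values measure the spread between libraries, part of which may be technical.

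The DG holds the granule cells, which receive the main cortical input to the hippocampus, and beneath them a zone in which new neurons are born in adult life. Environmental enrichment adds space, objects and company to a cage, and in rodents it is known to raise the survival of newborn granule cells. A microRNA (miRNA) is a short RNA cut from a hairpin, of which either arm (5p or 3p) can persist. It pairs with messenger RNAs mainly through its seed, bases 2 to 8, so miRNAs with 1 seed share many predicted targets.

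The sequences below are those of the miRNAs on which the results turn, grouped by seed or hairpin, from RefSeq on the GRCm38 build, with the seed in capitals. The first pair shares a seed and lies in 1 cluster on chromosome X, the next 4 share another seed, and the miR-29 and miR-132 and miR-212 families follow. The last 3 come from adjacent hairpins on chromosome 2.
miR-221-3p: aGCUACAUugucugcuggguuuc
miR-222-3p: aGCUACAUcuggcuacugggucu
miR-92b-3p: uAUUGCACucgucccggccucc
miR-363-3p: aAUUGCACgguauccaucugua
miR-92a-3p: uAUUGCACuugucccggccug
miR-25-3p: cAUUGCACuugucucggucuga
miR-29a-3p: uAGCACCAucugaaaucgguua
miR-29c-3p: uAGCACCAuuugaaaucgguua
miR-29b-3p: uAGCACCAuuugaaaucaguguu
miR-132-3p: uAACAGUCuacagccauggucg
miR-212-3p: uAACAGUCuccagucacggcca
miR-298-5p: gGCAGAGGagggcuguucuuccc
miR-296-5p: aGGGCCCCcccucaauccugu
miR-296-3p: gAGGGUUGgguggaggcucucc

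The values are raw counts of reads per mature miRNA, 1900 in each library, here given as CPM, counts scaled to library size with TMM factors. Library totals of miRNA counts were 1117213 to 2234466 in 2wEE_DG and 1703039 to 2955896 in 10wEE_DG, so that 3 counts corresponded to 1.34 to 2.69 CPM and to 1.02 to 1.76 CPM. These floors cover counting error only. The 40 miRNAs that stood higher in home-cage DG than in home-cage CA summed to 66067 to 112010 CPM in the enriched DG libraries and to 32143 to 42568 CPM in the enriched CA libraries, which had no part in choosing them. These did not overlap, so each enriched library matched its labelled region. On the first principal component of the 13 libraries (31.9% of the variance), libraries 4 and 5 of 2wEE_DG lay apart at -7.96 and -9.65, against -2.30 to 0.31 for the other 3 of that group and -2.03 to 5.49 for 10wEE_DG.

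Of 525 miRNAs that passed the filter on low counts, 52 (9.90%) differed between 10 and 2 weeks of enrichment at an adjusted p under 0.05. Of these, 24 were higher (4.57%) and 28 lower (5.33%) at 10 weeks. Most differences were modest: the absolute log2 fold changes of the 52 ranged from 0.23 to 1.65 with a median of 0.51, and 5 exceeded 1. In 17 of the 525 (3.24%) the 2 groups did not overlap at all, 8 with every 10-week library higher (1.52%) and 9 with every one lower (1.71%), and 13 of these 17 were among the 52 called. The median log2 fold change of all 525 was -0.02, and 252 of them were positive. The count rested in part on the libraries that lay apart: 22 were called without library 4 of 2wEE_DG, 14 without library 5, and 13 without both, a choice made after seeing the data, of which 11 were among the 52. Through the alternatives 40 of the called miRNAs were followed 1 by 1. Named below but not among the 40 were miR-128-1-5p and miR-877-3p. Of the 40, 7 passed the test under every alternative in which they were tested, and none of the 40 reversed. The 7 were miR-221-3p, miR-92b-3p, miR-298-5p, miR-296-5p, miR-598-3p, miR-29a-3p and miR-7b-3p. Of the 7, miR-598-3p had no RefSeq sequence and was not tested with G and C content taken into account.

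The smallest p belonged to miR-221-3p, which in several cell types is known to repress cell-cycle inhibitors such as p27 (Cdkn1b). Its hairpin lies on the minus strand at chrX:19146294-19146388, in no other annotated gene of that strand. The 5 libraries of 2wEE_DG held 5111, 5619, 5487, 5028 and 4283 CPM of miR-221-3p. The 8 libraries of 10wEE_DG held 6783 to 10739 CPM, with a median of 8753. Every 10-week library thus stood above every 2-week library. The log2 fold change was 0.75 ± 0.10 (SE; 5106 ± 522 against 8586 ± 1408 CPM, mean ± SD, n = 5 and 8; adjusted p = 1.411e-05).

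Its partner miR-222-3p, from the hairpin next to it at chrX:19146893-19146971 and with the same seed, was not called. The 2-week libraries held 12188, 15018, 15393, 26947 and 21722 CPM of miR-222-3p, the last 2 being libraries 4 and 5. At 10 weeks the levels were 11398 to 19150 CPM with a median of 13808, inside the 2-week range but for 1 library. The log2 fold change was -0.34 ± 0.17 (adjusted p = 0.198), and 0.0207 without libraries 4 and 5 of 2wEE_DG. For the opposite arm of the first hairpin, miR-221-5p, the log2 fold change was 0.11 ± 0.10, with an adjusted p of 0.543. These 2 miRNAs were chosen for naming after their values were seen.

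**Figure D1:**
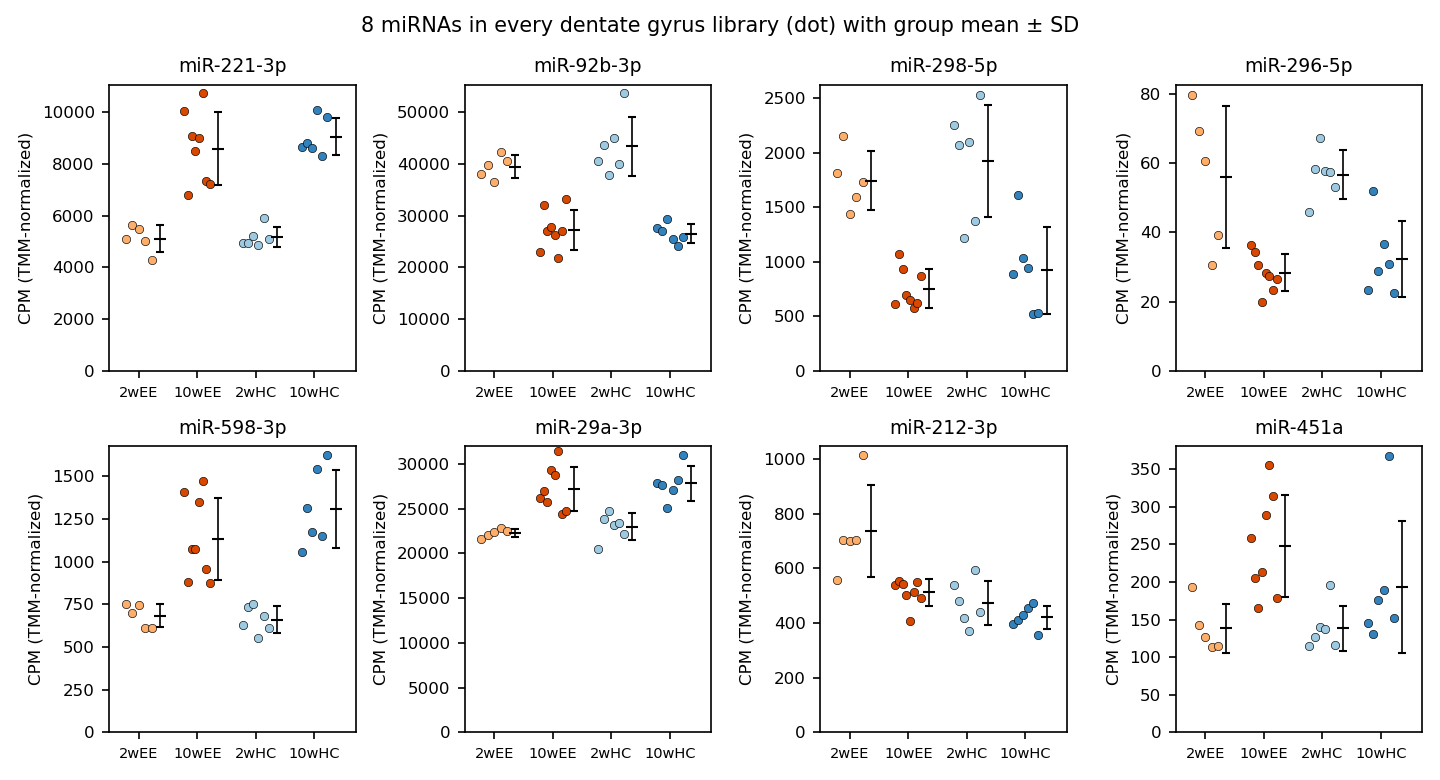
CPM of 8 miRNAs in every DG library (dots), by weeks and housing, with the mean ± SD of each group beside the dots; each vertical axis starts at 0. In the enriched groups (orange) miR-221-3p, miR-598-3p and miR-29a-3p are higher in each 10-week library than in any 2-week library, miR-92b-3p, miR-298-5p and miR-212-3p lower, and the home-cage groups (blue) show the same order of means.

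Among miRNAs with the seed AUUGCAC, miR-92b-3p, which in mouse cortex is known to limit intermediate progenitors through Tbr2 (Eomes), was lower at 10 weeks. It held 38120, 39803, 36447, 42306 and 40486 CPM in the 2-week libraries, against 21858 to 33167 CPM with a median of 27008 at 10 weeks. The groups did not overlap, and the log2 fold change was -0.53 ± 0.09 (adjusted p = 0.00063). A rare miRNA of the same seed, miR-363-3p of the X-linked miR-106a cluster, was called higher, at 1.32, 2.33, 0.466, 2.24 and 1.91 CPM against 0.762 to 8.72 CPM with a median of 4.38 (log2 1.65 ± 0.45, adjusted p = 0.0184). Its median raw count was 3 at 2 weeks, at the floor, and 11.5 at 10 weeks. It passed the filter on low counts only through the group in which it was high, with 4 libraries of 10wEE_DG and 1 of 10wHC_DG over the limit where 5 were needed, so it was not tested without library 1, 3, 4, 5, 6 or 7 of 10wEE_DG, and its call is given as a description. Of the 52 called it was the only 1 to pass in this way. The call was lost with limma-voom (adjusted p = 0.0791), without library 3 of 2wEE_DG (0.0578) and without library 5 (0.0521). The other members named, miR-92a-3p (log2 -0.08 ± 0.11; 2 hairpins give it) and miR-25-3p (0.10 ± 0.09), were not called.

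The adjacent hairpins Mir298 (chr2:174267504-174267585) and Mir296 (chr2:174267047-174267125), on the minus strand and known as imprinted miRNAs of the Gnas region, gave 3 tested miRNAs, all lower at 10 weeks. For miR-298-5p the 2-week libraries held 1811, 2156, 1438, 1592 and 1730 CPM. The 10-week libraries held 575 to 1068 CPM with a median of 674, all below the 2-week group. The log2 fold change was -1.21 ± 0.21 (adjusted p = 0.000846). For miR-296-5p the 2-week values were 79.7, 69.4, 60.5, 30.6 and 39.2 CPM and the 10-week values 19.9 to 36.4 CPM with a median of 27.8. Here 6 of 8 libraries lay below the whole 2-week group (log2 -1.01 ± 0.19, adjusted p = 0.00185). The other arm, miR-296-3p, fell from 23.0 ± 5.16 to 12.04 ± 1.91 CPM without overlap (log2 -0.91 ± 0.26, adjusted p = 0.0214), a call lost without library 2 (0.0507), library 4 (0.0681) or library 5 (0.0753) of 2wEE_DG.

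The miR-29 family is enriched in astrocytes among brain cells and known to target DNA methyltransferases and collagens, and 3 of its miRNAs were higher at 10 weeks. The 2-week libraries held 21634, 22038, 22330, 22863 and 22507 CPM of miR-29a-3p, a narrow range, and the 10-week libraries 24363 to 31439 CPM with a median of 26551. The groups did not overlap, and the log2 fold change was 0.29 ± 0.06 (adjusted p = 0.00713). Smaller margins were seen for miR-29c-3p (0.24 ± 0.07, adjusted p = 0.0324) and its other arm miR-29c-5p (0.55 ± 0.17, adjusted p = 0.0331). The first call was lost without library 2, 4 or 5 of 2wEE_DG or library 1, 4, 5 or 6 of 10wEE_DG (adjusted p = 0.0541 to 0.126), the second without library 2, 3, 4 or 5 of 2wEE_DG or any of libraries 1 and 3 to 7 of 10wEE_DG (0.0555 to 0.14). From 2 hairpins comes miR-29b-3p, and since reads that align to several places entered no count, its counts are only those of reads aligned uniquely, not its level. These stood at 0 to 4.66 CPM at 2 weeks and 4.84 to 8.37 CPM at 10 weeks and did not pass the test (0.92 ± 0.34, adjusted p = 0.0806). On the astroglia list miR-26b-5p was higher too (0.23 ± 0.07, adjusted p = 0.0285), a call lost without library 4 (0.0681) or library 5 (0.0779) of 2wEE_DG or library 1 of 10wEE_DG (0.0748). Of the 16 tested members of that list, 4 were higher, beside 4.57% of all tested, none was lower and 11 were positive, with a median log2 fold change of 0.18 beside -0.02 for all miRNAs. With G and C content taken into account, as described with the base composition, the calls of miR-29c-3p (0.10) and miR-26b-5p (0.08) were lost. The summed level of the list was 32268 to 32945 CPM at 2 weeks and 35561 to 43889 CPM at 10 weeks, and most of it was miR-29a-3p. Whether the number of astrocytes moved with it was not tested, and in bulk tissue more cells of a type and more RNA per cell cannot be told apart.

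Several other miRNAs were higher at 10 weeks. The 2-week libraries held 752, 701, 745, 612 and 613 CPM of miR-598-3p, and the 10-week libraries 875 to 1470 CPM with a median of 1074, without overlap (log2 0.73 ± 0.13, adjusted p = 0.000944). For miR-3535 the levels were 53.7, 52.5, 58.2, 47.8 and 47.8 CPM against 68.7 to 90.7 CPM, again without overlap (0.53 ± 0.11, adjusted p = 0.00257). Its hairpin coincides with a small nucleolar RNA, Gm24148, at chr1:86351981-86352127 on the minus strand within Ncl, so reads of the 2 products cannot be told apart. The X-linked miR-1264-3p was rare, at 1.91 to 5.23 CPM against 5.51 to 11.8 CPM, and did not overlap between groups (1.17 ± 0.29, adjusted p = 0.0124). Its call was lost without library 5 of 2wEE_DG (adjusted p = 0.0505) and with counts thinned to the smallest DG library (0.0656). Both arms of miR-345 were called (5p 0.74 ± 0.18, adjusted p = 0.0109; 3p 0.37 ± 0.10, adjusted p = 0.0206), and both calls were lost without library 4 (0.0524 and 0.0681) or library 5 (0.0521 and 0.0835) of 2wEE_DG.

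Of 21 tested miRNAs on the neuron-enriched list, 3 were higher, 2 lower and 12 positive (median log2 0.11), beside 4.57% higher and 5.33% lower of all 525, so the counts lay a few calls from the background. The 3 higher ones were miR-129-2-3p, miR-137-3p (a regulator of neuronal maturation) and miR-7a-1-3p (0.43 ± 0.13, adjusted p = 0.0319). The first stood at 712, 462, 594, 350 and 314 CPM at 2 weeks against 572 to 1164 CPM at 10 weeks (log2 0.79 ± 0.21, adjusted p = 0.016). For miR-137-3p the levels were 1253, 1218, 1358, 1124 and 994 CPM against 1232 to 1757 CPM (0.35 ± 0.09, adjusted p = 0.0163). The groups of both overlapped. A member of the same list, miR-7b-3p, moved the other way, from 19.4, 21.6, 14.4, 14.9 and 24.9 CPM to 6.85 to 14.5 CPM, with 7 of 8 libraries below the 2-week group (-0.99 ± 0.22, adjusted p = 0.00713). The second lower one was miR-128-1-5p (-0.34 ± 0.10, adjusted p = 0.0324), named after its values were seen. Its call was lost with G and C content taken into account, as described with the base composition (-0.14, adjusted p = 0.301). It was not followed when single libraries were left out. Beside these, miR-326-3p, from an intron of Arrb1, was higher, at 686, 363, 422, 327 and 313 CPM against 592 to 760 CPM. Library 1 of 2wEE_DG lay inside the 10-week range (0.67 ± 0.16, adjusted p = 0.0107). The calls of miR-129-2-3p, miR-137-3p and miR-326-3p were all lost without library 4 of 2wEE_DG (adjusted p = 0.0681, 0.0681 and 0.051) and without library 5 (0.0771, 0.0835 and 0.0521), and that of miR-7a-1-3p without library 2, 4 or 5 of 2wEE_DG or library 1, 3, 4, 5 or 6 of 10wEE_DG (0.0557 to 0.144).

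The cluster of miR-132 and miR-212 is transcribed under the activity-dependent factor CREB and known to promote dendrite growth. It had 0 of 4 arms with a positive fold change, a median log2 fold change of -0.27 and 1 arm called, which was lower. Of all 525 miRNAs tested, 252 were positive and 5.33% were called lower, with a median of -0.02. The arm called was miR-212-3p, at 559, 706, 699, 703 and 1015 CPM at 2 weeks. At 10 weeks it held 407 to 555 CPM with a median of 527, without overlap. Its log2 fold change was -0.52 ± 0.12 (736 ± 168 against 513 ± 49.0 CPM, adjusted p = 0.00713), and the call was lost without library 5 of 2wEE_DG, which held the highest value (-0.38, adjusted p = 0.0521). The more plentiful miR-132-3p held 3216, 4500, 4502, 4831 and 5898 CPM against 3124 to 4252 CPM, and the groups overlapped (-0.29 ± 0.10, adjusted p = 0.0626). For miR-132-5p the log2 fold change was -0.26 ± 0.09 (adjusted p = 0.0626) and for miR-212-5p -0.13 ± 0.10 (adjusted p = 0.407). Among the alternatives, miR-132-3p passed in 4 of 26, miR-132-5p in 6 of 26 and miR-212-5p in 0 of 26. In the home-cage groups the same 4 arms had log2 differences of -0.17 (miR-212-3p), -0.06 (miR-132-3p), 0.06 (miR-132-5p) and -0.20 (miR-212-5p), none called.

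Of the plasticity list, 35 members were tested, 1 higher and 4 lower, with 14 positive and a median log2 fold change of -0.06, beside 4.57% higher and 5.33% lower of all tested. The lower ones were miR-212-3p, miR-485-5p, known in rat neurons as a brake on synapse formation, miR-134-3p and miR-125b-1-3p. The last of these stood at 528 ± 134 against 372 ± 26.8 CPM (-0.50 ± 0.15, adjusted p = 0.0331), a call lost without library 2 (0.0513), library 4 (0.102) or library 5 (0.166) of 2wEE_DG and without library 4 (0.0564), library 5 (0.0628) or library 6 (0.0566) of 10wEE_DG. Other arms of these miRNAs were not called. The arm miR-134-5p, more plentiful than miR-134-3p at means of 95.3 and 120 CPM, was positive (0.33 ± 0.13, adjusted p = 0.103). The arm miR-125b-5p was near 0 (0.03 ± 0.09), and miR-485-3p (-0.38 ± 0.16) and miR-212-5p (-0.13 ± 0.10) were negative.

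The Dlk1-Dio3 domain on chromosome 12 is an imprinted cluster whose miRNAs are expressed from the maternal allele and plentiful in brain. Of its 85 tested miRNAs, none was higher, 5 were lower and 37 were positive, with a median log2 fold change of -0.04. The share lower was near the 5.33% of all miRNAs tested, so the count is no result about the cluster. The 5 were miR-673-3p (-0.54 ± 0.14, adjusted p = 0.0132), miR-668-3p (-0.51 ± 0.13, adjusted p = 0.0148), miR-485-5p (-0.51 ± 0.14, adjusted p = 0.0163), miR-487b-3p (-0.25 ± 0.07, adjusted p = 0.0271) and miR-134-3p (-0.44 ± 0.13, adjusted p = 0.0296). The summed level of the cluster covered 221680 to 262050 CPM at 2 weeks and 204750 to 260310 CPM at 10 weeks, so the cluster as a whole overlapped. Without library 5 of 2wEE_DG 4 of the 5 calls were lost, all but miR-673-3p. Without library 4 the same 4 were lost. That of miR-487b-3p was also lost without library 3 of 2wEE_DG (0.0578) or library 6 (0.0551) or 7 (0.0789) of 10wEE_DG, and that of miR-134-3p without library 1 of 2wEE_DG (0.0771) or library 1 (0.0667), 5 (0.0731) or 6 (0.0628) of 10wEE_DG. With G and C content taken into account, the calls of miR-673-3p (-0.38, adjusted p = 0.0645) and miR-134-3p (-0.27, adjusted p = 0.174) were lost. That of miR-668-3p still passed (-0.31, adjusted p = 0.0422), and miR-485-5p and miR-487b-3p had no RefSeq sequence.

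The other lower miRNAs named were scattered over the genome. The 2-week libraries held 106570, 106280, 104450, 115690 and 120050 CPM of miR-22-3p, and the 10-week libraries 79920 to 107550 CPM with a median of 89998. Library 2 of 10wEE_DG lay inside the 2-week range, and the log2 fold change was -0.29 ± 0.07 (adjusted p = 0.0148), a call lost without library 5 of 2wEE_DG (0.0521). For miR-28a-5p the levels were 277, 294, 286, 329 and 335 CPM against 162 to 258 CPM, without overlap (-0.48 ± 0.12, adjusted p = 0.0135). From an intron of Rnf130, miR-340-3p fell from 175 ± 20.9 to 123 ± 14.5 CPM (-0.51 ± 0.11, adjusted p = 0.00403), miR-674-3p from 393 ± 70.4 to 271 ± 35.6 CPM (-0.53 ± 0.11, adjusted p = 0.00257) and miR-1249-3p from 445 ± 46.6 to 316 ± 57.8 CPM (-0.50 ± 0.12, adjusted p = 0.00872). From an intron of Nsrp1, miR-423-5p stood at 603, 813, 727, 1752 and 1720 CPM at 2 weeks and 374 to 815 CPM at 10 weeks. The distance between the groups of miR-423-5p came mostly from libraries 4 and 5, and its log2 fold change of -1.09 ± 0.26 (adjusted p = 0.0107) was -0.87 without library 4 (0.0535), -0.88 without library 5 (0.0541) and -0.44 without both (0.419).

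The hairpin Mir3102 gave miRNAs in opposite directions. The 2-week libraries held 114, 88.0, 83.3, 68.8 and 80.3 CPM of miR-3102-3p, and the 10-week libraries 94.5 to 180 CPM (0.65 ± 0.17, adjusted p = 0.016). By contrast miR-3102-3p.2-3p stood at 70.9, 65.9, 78.7, 56.8 and 59.3 CPM against 39.0 to 68.3 CPM (-0.37 ± 0.12, adjusted p = 0.0387). Both calls were lost without library 5 of 2wEE_DG (adjusted p = 0.0603 and 0.0521), the first also without library 4 (0.0681), and the second also without library 1, 2 or 3 of 2wEE_DG or library 1, 4, 5 or 6 of 10wEE_DG (0.0553 to 0.124). Of the called miRNAs, 29 had another arm of the same hairpin tested, in 27 pairs, and 19 pairs had the same sign. Both arms were called in 3 of the 27 pairs (miR-296, miR-345 and miR-29c), in each case in 1 direction.

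Levels of 2 miRNAs known from red blood cells were higher at 10 weeks. Of 5 tested members of the erythrocyte list 2 were called higher, beside 4.57% of all tested, and 5 were positive (median log2 0.50, beside -0.02 for all). One was miR-451a, a miRNA of red cells, at 193, 143, 127, 114 and 115 CPM against 166 to 356 CPM with a median of 236 (0.84 ± 0.22, adjusted p = 0.0163). The other was miR-486-3p, at 12.3, 12.2, 7.45, 11.96 and 6.69 CPM against 14.8 to 24.8 CPM, without overlap (0.85 ± 0.22, adjusted p = 0.016). The summed list covered 194 to 293 CPM at 2 weeks and 265 to 510 CPM at 10 weeks. The calls of miR-451a and miR-486-3p were lost without library 5 of 2wEE_DG (adjusted p = 0.0697 and 0.0564), and that of miR-451a also without library 4 (0.0681). The uniquely aligned reads of miR-16-5p, which blood cells also hold and which 2 hairpins give, were higher as well, at a mean of 8.80 and 14.8 CPM that is not the level of the miRNA (0.75 ± 0.21, adjusted p = 0.0241), a call lost without library 2 (0.0815), 4 (0.0681) or 5 (0.0521) of 2wEE_DG. How much blood the tissue carried was not tested.

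None of the markers of other cells passed the test in the main fit, but some lay near the threshold. Of the alternatives in which each was tested, miR-338-5p passed in 11 of 26 and miR-145a-5p in 8 of 24. For miR-10a-5p it was 6 of 26 and for miR-150-3p 1 of 25. The vascular and mesenchymal list had 5 of 6 tested members positive (median log2 0.44), with summed levels of 16940 to 35677 CPM at 2 weeks and 12854 to 65609 CPM at 10 weeks, and miR-126a-5p at 0. Microglia and leukocyte miRNAs had 5 of 7 positive (median 0.14), with summed levels of 3090 to 4237 against 2594 to 3696 CPM and miR-142b at 0. In the choroid plexus and ependyma list 7 of 13 were positive (median 0.15), at 15277 to 19197 against 13995 to 19278 CPM, and 6 markers including miR-211-3p and miR-449b were at 0. The oligodendrocyte list had 2 of 5 positive (median -0.05), at 2240 to 2763 against 2220 to 2758 CPM. Counts of 0 for miR-219a-5p and, on the vascular list, miR-199a-5p and miR-199b-3p are no measure of these markers. Hairpins at more than 1 place give the same sequence, and reads aligned to several places were not counted. Whether the 0 of miR-126a-5p stands for its absence was not tested, and its other arm, miR-126a-3p, passed the filter on low counts. Of the hindbrain list both tested members, miR-10a-5p and miR-10b-5p, were positive (median 0.71, 195 to 416 against 153 to 1108 CPM, 6 markers at 0), and of the sensory and pineal list 2 of 3 (median 0.96, 323 to 463 against 277 to 988 CPM, miR-375-5p and miR-96-3p at 0).

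The large families held 0 or 1 call each, beside 9.90% of all miRNAs tested, and in lists this short such counts lie near the background. None of 18 tested let-7 miRNAs, which promote differentiation, was called (6 positive, median log2 -0.10), nor any of 12 of the miR-30 family (7 positive, median 0.05). Among the alternatives, let-7f-5p (-0.60 in the main fit) passed in 7 of 26 and let-7a-5p (-0.54) in 6 of 26. For let-7g-3p it was 3 of 26, for miR-30a-5p 1 of 26 and for let-7i-3p 0 of 26. Of 11 miR-125 and miR-99 miRNAs 1 was lower (6 positive, median 0.01), and of 8 miR-181 miRNAs 1 was lower, miR-181b-1-3p, with none positive (median -0.15). The call of miR-181b-1-3p (-0.47 ± 0.13, adjusted p = 0.0256) was lost with DESeq2 (0.0569) and without library 3 (0.0786), 4 (0.0681) or 5 (0.112) of 2wEE_DG. Not called in the main fit, miR-181a-2-3p (-0.33) passed in 9 of 26 alternatives. In the proliferation clusters, miR-17 to miR-92 and their paralogs, 1 of 14 was higher, the rare miR-363-3p (10 positive, median 0.09). The Sfmbt2 cluster had 4 tested members, none called and none positive (median -0.29), and 65 of its 80 members were at 0. Reads that align to several places entered no count, so families with near-identical copies, such as let-7 and the Sfmbt2 cluster, and miRNAs from several hairpins can be read only through members with unique reads.

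Among the 37 tested miRNAs that stood higher in home-cage DG than in home-cage CA, 1 was higher, 4 were lower and 8 were positive, with a median log2 fold change of -0.14. Over all 525 the shares were 4.57% higher and 5.33% lower. Those called were miR-363-3p on one side and miR-298-5p, miR-423-5p, miR-877-3p and miR-296-3p on the other, the first of these last 2 named after its values were seen. Of the 42 tested that stood higher in CA, 1 was higher (miR-1264-3p), 1 lower (miR-181b-1-3p) and 29 positive, with a median of 0.17. The home-cage time difference had medians of -0.14 and 0.11 for the same lists, whose members were chosen on those home-cage libraries. Whether the dissected tissue held more of the neighbouring CA at 10 weeks was not tested.

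The home-cage groups labelled 10 and 2 weeks were compared in the same way. The labels give both the same age, 20 weeks, and the same housing. What a 10- over 2-week difference stands for in the home cage therefore cannot be told from them. Between 10wHC_DG and 2wHC_DG 84 miRNAs were called (16.0%), 40 higher (7.62%) and 44 lower (8.38%). With scaling by library totals the split was 45 higher and 23 lower. Of the 52 called under enrichment, 36 were also called in the home cage, all 36 in the same direction. This is 69.2% of the enriched calls and 42.9% of the home-cage calls. The sign was the same for 50 of the 52 and for 396 of all 525 miRNAs (75.4%). Across the 525 miRNAs, which are not independent, the log2 fold changes of the 2 housings, drawn from different libraries, correlated with r = 0.66 and rho = 0.66. For miR-221-3p the home-cage value was 0.81 ± 0.10, for miR-92b-3p -0.71 ± 0.09, for miR-298-5p -1.06 ± 0.22 and for miR-598-3p 0.99 ± 0.13.

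The difference between the housings was then tested itself. In none of the 525 miRNAs (0%) did the 10- over 2-week change differ between enriched and home-cage DG at an adjusted p under 0.05, by edgeR, DESeq2 or limma-voom, and 21 had an unadjusted p under 0.05 in edgeR. Of the 52 called under enrichment 6 were among these 21. One of the 6 was miR-363-3p (1.65 under enrichment, -0.33 ± 0.40 in the home cage), which passed the filter only through 10wEE_DG where it was high, so that its difference is a description. Apart from it the smallest unadjusted p belonged to miR-181b-1-3p (-0.47 under enrichment, 0.15 in the home cage, unadjusted p = 0.00673 in edgeR). The others were miR-134-3p, miR-7b-3p, miR-1264-3p and miR-212-3p, with unadjusted p-values from 0.0289 to 0.0498 in edgeR. None of these 6 passed the adjustment. For the miRNAs with the smallest p the housings were near each other, the difference being -0.06 ± 0.13 for miR-221-3p and 0.18 ± 0.13 for miR-92b-3p.

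**Figure D2:**
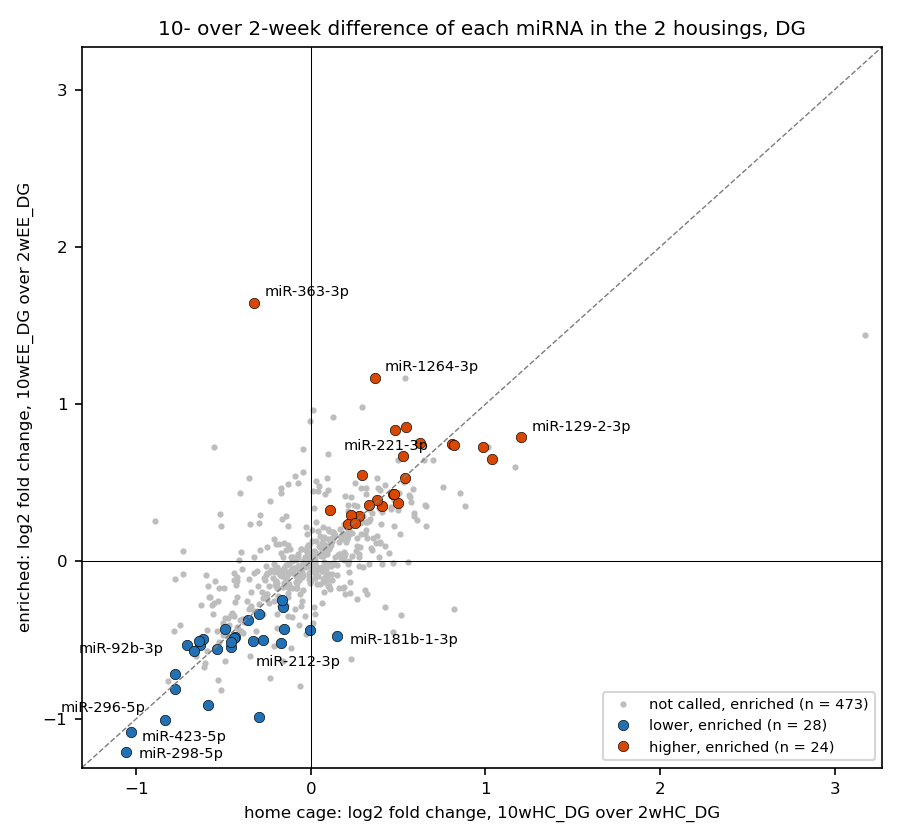
Log2 fold change of 10 over 2 weeks in home-cage DG (horizontal) and in enriched DG (vertical) for the 525 miRNAs tested; coloured points are the 24 called higher and 28 called lower under enrichment, and the dashed line marks equal change. Of the 52 coloured points 50 have the same sign on both axes.

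The same 2 durations of enrichment were also compared in CA. There 15 of 581 miRNAs were called (2.58%), and 55 of 580 (9.48%) without library 3 of 10wEE_CA, which held 480792 miRNA counts beside a median of 3789500 in its group. Of the 52 DG calls 51 were tested in CA, 34 had the same sign (33 without that library), and 3 were called there, miR-598-3p, miR-3535 and miR-129-2-3p, all higher. Without the library miR-486-3p was a further one. Across 522 miRNAs the log2 fold changes of DG and CA correlated with r = 0.16, or 0.06 without the library. The difference between the regions was called for 8 of 593 miRNAs (1.35%) and for 63 of 594 (10.6%) without it. The labels do not say whether CA and DG libraries came from the same animals, and this test treated all libraries as independent.

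Of the 52 DG calls 4 also differed from CA by this test of the difference, and 27 without library 3 of 10wEE_CA. The smallest p of the 4 belonged to miR-221-3p, which was higher at 10 weeks in DG and had a CA value of -0.05 ± 0.08 (difference 0.81 ± 0.13, adjusted p = 6.68e-05). The others, each lower in DG, were miR-28a-5p (difference -0.57 ± 0.14, adjusted p = 0.0294), miR-340-3p (-0.60 ± 0.15, adjusted p = 0.034) and miR-423-5p (-1.32 ± 0.35, adjusted p = 0.034). The calls of these 3 were lost without library 4 of 2wEE_DG (adjusted p = 0.142 each), for miR-423-5p also without library 5 (0.103), and without library 1, 5, 6 or 7 of 10wEE_DG (0.0556 to 0.0753). That of miR-221-3p held under every alternative tried.

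**Figure D3:**
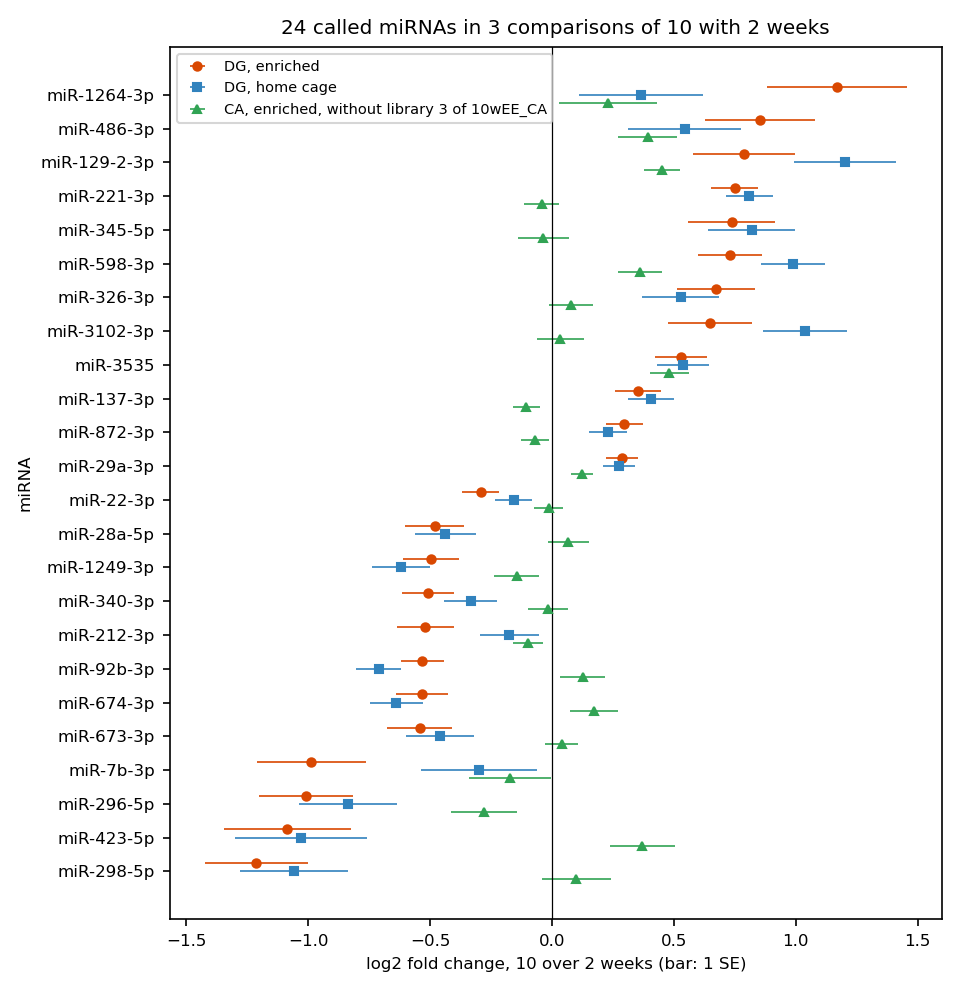
Log2 fold change of 10 over 2 weeks with 1 SE for the 12 higher and 12 lower called miRNAs of smallest p, in enriched DG (circles), home-cage DG (squares) and enriched CA without library 3 of 10wEE_CA (triangles). The circles and squares lie on the same side of 0 throughout, while for miR-221-3p, miR-92b-3p and miR-298-5p the triangle lies near 0 or on the other side.

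Since the time in housing may go with a batch of libraries that the labels do not name, the reads given to no miRNA were compared. Reads aligned outside any annotated miRNA made up 4.33, 4.22, 3.91, 3.81 and 4.05% of the reads in 2wEE_DG. In 10wEE_DG they made up 4.88 to 5.62% with a median of 5.199%, so every 10-week library was higher. The means were 4.06% ± 0.21 and 5.22% ± 0.26 (SD; difference 1.16 percentage points, exact two-sided permutation test over 1287 arrangements, p = 0.000777, the smallest it can give, adjusted over 5 library measures 0.00389). The same separation by time was present in the home-cage DG groups (3.89 to 4.45% against 5.07 to 6.34%), in enriched CA (3.52 to 3.96% against 4.39 to 4.77%) and in home-cage CA (3.37 to 3.91% against 4.29 to 4.78%).

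The other 4 measures did not pass the adjustment. The share of reads given to miRNAs was 33.0, 32.5, 32.4, 30.2 and 31.5% at 2 weeks and 26.5 to 33.0% with a median of 29.9% at 10 weeks (exact permutation p = 0.0544, adjusted 0.0907). Reads with several alignments were 62.4 to 65.8% and 61.5 to 68.2% (exact permutation p = 0.443), and ambiguous reads 0.233 to 0.280% and 0.221 to 0.393% (exact permutation p = 0.259). Mean miRNA counts were 1718800 ± 473000 at 2 weeks and 2423300 ± 433800 at 10 weeks (exact permutation p = 0.021, adjusted 0.0525). No batch is named in the labels, so time in housing and any batch of libraries that went with it cannot be told apart in either housing or region.

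**Figure D4:**
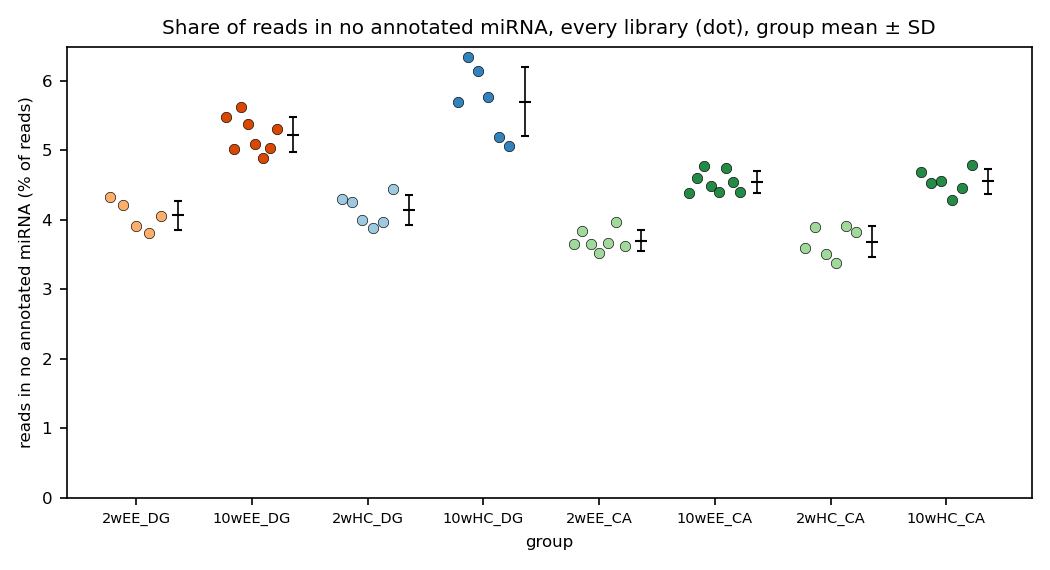
Percent of reads aligned outside any annotated miRNA in every library (dots) of the 8 groups, with the group mean ± SD beside them; the axis starts at 0. In each of the 4 pairs of groups the 10-week libraries all lie above the 2-week libraries, in DG (orange and blue) as in CA (green).

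The time difference also went with base composition. A RefSeq sequence was found for 463 of the 525 tested miRNAs (88.2%). The called lower miRNAs had a median of 61.8% G and C (24 with a sequence), the called higher ones 45.5% (22) and all tested 47.8%. The median log2 fold change was 0.14 among the 74 miRNAs of up to 40% G and C, 0.03 among the next 201, -0.07 among the next 103 and -0.15 among the 85 over 60%, of which 2 were called higher and 12 lower. Across the 463 miRNAs the correlation of G and C content with the log2 fold change was r = -0.34 under enrichment and -0.28 in the home cage.

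With each library's trend on G and C content taken out, an alternative chosen after seeing the data, 42 of the 463 were called, 21 higher and 21 lower, against 48 without it, and 32 were called both ways. Then miR-221-3p (0.74 ± 0.10, adjusted p = 2.051e-05), miR-298-5p (-1.05 ± 0.17, adjusted p = 0.00047) and miR-92b-3p (-0.38 ± 0.07, adjusted p = 0.00131) still passed. Calls that were lost included miR-296-3p (-0.68, adjusted p = 0.0591), miR-1249-3p (-0.35, adjusted p = 0.0591), miR-137-3p (0.21, adjusted p = 0.0751), miR-29c-3p (0.10, adjusted p = 0.311), miR-26b-5p (0.08, adjusted p = 0.547) and miR-3102-3p.2-3p (-0.18, adjusted p = 0.382). Of the GC-rich miRNAs miR-326-3p (66.7% G and C) was higher at 10 weeks against the trend, with 0.87 ± 0.19 after the correction (adjusted p = 0.00816).

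**Figure D5:**
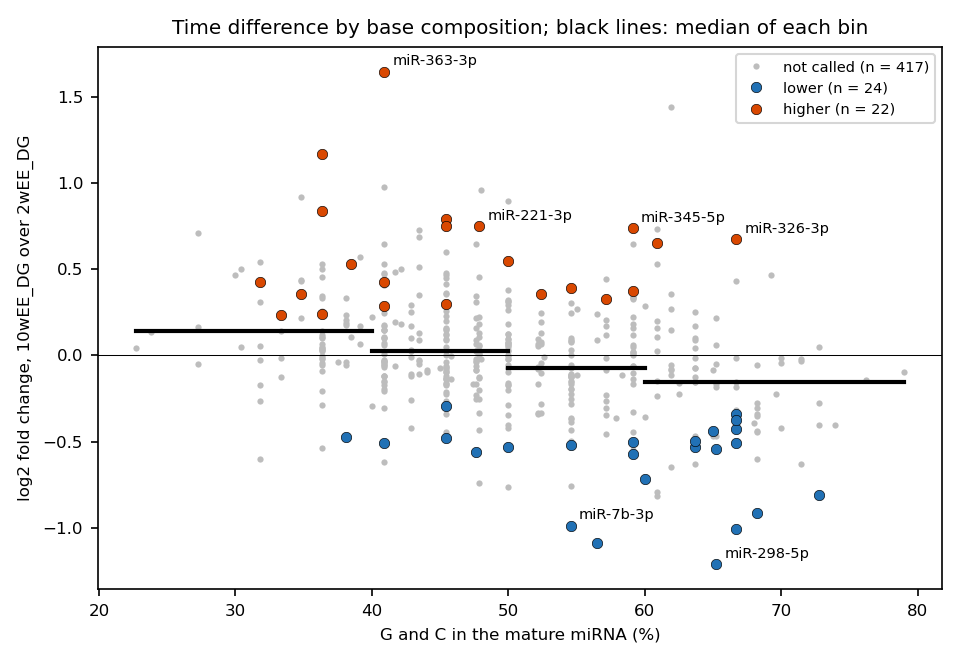
Percent of G and C bases in the mature miRNA (horizontal) and log2 fold change of 10wEE_DG over 2wEE_DG (vertical) for 463 miRNAs; black lines are the medians of 4 bins. The medians go from 0.14 in the lowest bin to -0.15 in the highest, and most called lower miRNAs (blue) lie to the right of most called higher ones (orange).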

How the data were processed

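Per the labels' protocols, CA and DG were dissected, and Tri reagent, DNase I and an Illumina TruSeq kit took the RNA to libraries. The deposited files hold raw counts per mature miRNA, made by the authors with CASAVA 1.8.2, cutadapt, STAR and HTSeq on mm10, per the submitters' processing notes (no version for the last 3 is given in the sources used here). All 5 closing totals (no feature, ambiguous and so on) were left out of library sizes and are reported as shares.

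The 25 DG libraries were fitted together with edgeR 4.0.16 in R 4.3.3 (quasi-likelihood F test, TMM, filterByExpr by group, 1 mean per group, two-sided). P-values were adjusted by Benjamini-Hochberg over all miRNAs tested, with 0.05 as the threshold. The SE was taken from the log2 fold change and F. CA was fitted on 27 libraries and the region difference on all 52. Library measures were tested by exact permutation. The fit was checked on simulated counts. Alternatives included DESeq2 1.42.0 and limma-voom 3.58.1. Of 38 pairs of DG libraries within a group compared, 0 held identical values.

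Named miRNAs were up to 12 called per direction, all arms of miR-132 and miR-212, and up to 4 of smallest p per list. The members and the lists were chosen with earlier results of these data known.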

Additional observations from a re-analysis of the deposited data

Results flagged for a closer look

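Among 142 sets of values tested (66 miRNAs and 5 library measures in the 2 enriched DG groups), 3 held a library set apart from the others of its group by more than Dixon's critical value, where chance sets apart about 1 in 20. Library 5 of 10wEE_DG held 407 CPM of miR-212-3p, against 492.7 CPM in the nearest library. Library 2 of 10wEE_DG held 90.7 CPM of miR-3535, with the nearest at 78.5 CPM. Library 8 of 10wEE_DG held 467 CPM of miR-485-5p, and the next value was 364 CPM.

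For 4 of the miRNAs called in DG, the difference between 10 and 2 weeks of enrichment itself differed between DG and CA (edgeR, 52 libraries, adjusted over 593 miRNAs). The DG minus CA value was 0.81 for miR-221-3p, -0.60 for miR-340-3p, -1.32 for miR-423-5p and -0.57 for miR-28a-5p, on the log2 scale.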

How the results depend on the processing

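The calls of the enriched DG comparison numbered 44 to 68 under other scalings, filters, tools or a fit of the 2 groups alone, and 42 with the GC offset. They numbered 107 with the miRNA share of reads as a covariate (50 of the 52 among them) and 13 without libraries 4 and 5 of 2wEE_DG. Leaving out 1 library at a time gave 14 to 74. In home-cage DG the 84 calls became 51 with no filter and 55 in a fit of the 2 groups alone. The 15 calls in CA became 6 with no filter, 35 with DESeq2, 0 in a fit of the 2 groups alone (edgeR, 546 miRNAs, 64 with an unadjusted p under 0.05) and 55 without library 3 of 10wEE_CA. The 8 calls of the region difference became 2 with no filter, 23 with a mean of at least 10 CPM, 34 with DESeq2, 5 with limma-voom, 29 with the covariate and 63 without library 3 of 10wEE_CA, and 2 to 28 when 1 DG library was left out. The housing difference stayed at 0 calls under every alternative run. The causes were not tested.

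Without libraries 4 and 5 of 2wEE_DG, 3 values that were not called changed sign, miR-222-3p to 0.0207, miR-221-5p to -0.0655 and miR-92a-3p to 0.10. With 1 library left out, the difference in miRNA counts ranged from 554020 to 833330 and passed in 4 of 13 cases, that in the miRNA share from -2.45 to -1.52 points, passing without library 7 of 10wEE_DG, and that in the share of reads outside miRNAs from 1.10 to 1.23 points, passing in all 13.

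With the library number as a replicate block 54 miRNAs were called, 44 of them among the 52. Whether the numbers pair any libraries was not tested. The correlations of same-numbered libraries were 0.189, 0.047, 0.177, 0.11 and -0.10, and only numbers 1 and 3 matched best with their own.

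The 5 libraries at 2 weeks, 2 of them apart from the rest, limit what the comparison can show. Rare miRNAs such as miR-363-3p and miR-1264-3p stood near the floor of 3 counts at 2 weeks.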
